A study of Mus musculus with 12 samples.

Results

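A set of 10 genes of macrophages and antigen presentation was followed across 12 Mouse Gene 1.0 ST arrays: H2-Aa, H2-Ab1, H2-Eb1, Cd74, Adgre1, Ptprc, Csf1r, C1qa, C1qb and Cd68. They were chosen by name, and for each gene the probe set with the highest mean among those annotated with that symbol alone was taken. All 10 of 10 genes were found, each with 1 such probe set, among 19938 genes with a single symbol. All mice were S100a5-tauGFP animals, aged 7 to 12 weeks and of both sexes, in which a green fluorescent protein (GFP) marks cells that use S100a5, a calcium-binding protein gene of active olfactory sensory neurons. Each mouse was kept alone in a chamber of clean air for 40 hours. From 26 hours on it received pulses of 10 seconds every 20 minutes, which carried a citrus accord (a blend of odorants, at 5%) in the odor groups and filtered air in the vehicle groups. Cells of the olfactory mucosa were then separated by flow sorting, and each array holds RNA of sorted cells from a pool of 3 mice. The 4 groups, of 3 arrays each, were odor GFP-positive, vehicle GFP-positive, odor GFP-negative and vehicle GFP-negative cells. The 18 mice formed 6 pools, each of which gave 1 GFP-positive and 1 GFP-negative array. The sort selects on the reporter alone, so the GFP-negative fraction can hold any other cell of the mucosa, blood leukocytes included, and also sensory neurons without the reporter. The labels do not say how the sexes were spread over the pools.

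Values are log2 signals as deposited, and a difference of 1 is a 2-fold change. The median value of an array lay between 7.04 and 7.20, and the mean of 12 mature sensory neuron genes between 12.21 and 12.26 on GFP-positive and between 11.61 and 11.92 on GFP-negative arrays, so neuronal RNA was present in both fractions. S100a5 itself, the gene behind the reporter, had mean signals of 6.35 in odor and vehicle GFP-positive cells and of 6.05 in odor and 6.16 in vehicle GFP-negative cells, and the means of 16 genes of other organs, expected to be absent, were 6.19 to 6.49 per array. Precision is limited by the number of arrays. The standard error (SE) of a difference between groups was 0.12 to 0.24 for the 10 genes and 0.0968 at the median of all genes. Apart from the level of genes expected to be absent, signals of different probe sets were not set against each other, because probe sets differ in brightness.

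Antigen-presenting cells load peptides of engulfed proteins onto class II molecules of the major histocompatibility complex and show them to helper T cells. H2-Aa encodes the alpha chain and H2-Ab1 the beta chain of the A molecule, H2-Eb1 the beta chain of the E molecule, and Cd74 the invariant chain that guards the peptide groove until the molecule reaches the endosome. Dendritic cells, macrophages and B cells carry class II. Ptprc, or CD45, is a receptor tyrosine phosphatase of all nucleated blood cells. Adgre1 (F4/80), Csf1r, the receptor of colony-stimulating factor 1, and Cd68, a lysosomal membrane protein, are macrophage and monocyte genes, and C1qa and C1qb encode chains of C1q, the recognition part of the classical complement pathway, which tissue macrophages make. In the olfactory mucosa macrophages clear dying sensory neurons. For the description the 10 genes are taken by these roles, in a split made after their values were seen, as 4 class II genes (H2-Aa, H2-Ab1, H2-Eb1, Cd74), Ptprc, and 5 macrophage genes (Adgre1, Csf1r, C1qa, C1qb, Cd68).

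Class II genes share a promoter module, the X and Y boxes, which the RFX and NF-Y complexes bind and through which the coactivator CIITA acts. RefSeq promoter windows (GRCm38.p6, 250 bases before to 50 after the start) were matched by symbol for 5 of the 10 genes, and those of 4 genes are shown because the class II and the macrophage genes separated in the results. H2-Aa lies on the minus strand at chr17:34287774-34288073 and H2-Eb1 on the plus strand at chr17:34305617-34305916. In these the capitals mark the X1 core (CTNGCAAC) and the Y box (CTGATTGG), searched on both strands with letters chosen after these windows were read:
H2-Aa: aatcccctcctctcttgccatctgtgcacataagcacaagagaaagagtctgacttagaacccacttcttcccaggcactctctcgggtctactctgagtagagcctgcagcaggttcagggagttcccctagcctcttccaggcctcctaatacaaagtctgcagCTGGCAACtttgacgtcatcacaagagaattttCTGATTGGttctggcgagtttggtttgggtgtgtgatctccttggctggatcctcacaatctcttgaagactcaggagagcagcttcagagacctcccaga
H2-Eb1: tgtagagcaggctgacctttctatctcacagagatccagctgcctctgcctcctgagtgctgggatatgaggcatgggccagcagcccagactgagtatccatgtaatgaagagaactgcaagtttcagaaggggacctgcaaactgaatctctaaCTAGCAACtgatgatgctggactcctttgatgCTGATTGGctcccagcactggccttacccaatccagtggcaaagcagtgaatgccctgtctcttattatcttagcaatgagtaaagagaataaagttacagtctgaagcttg
The X1 core stood 84 to 77 bases before the start of H2-Aa and 94 to 87 before that of H2-Eb1. A Y box followed on the same strand, after 25 bases in H2-Aa and 24 in H2-Eb1. Of 32851 promoter windows 3.42% held the X1 core, 4.1% the Y box, and 13 windows (0.0396%) the X1 core upstream of the Y box on the gene's strand. C1qb, on the minus strand at chr4:136886151-136886450, and Cd68, on the minus strand at chr11:69666121-69666420, had neither motif. In these the capitals mark GGAAGT or its reverse complement, the core bound by PU.1, a transcription factor of myeloid cells:
C1qb: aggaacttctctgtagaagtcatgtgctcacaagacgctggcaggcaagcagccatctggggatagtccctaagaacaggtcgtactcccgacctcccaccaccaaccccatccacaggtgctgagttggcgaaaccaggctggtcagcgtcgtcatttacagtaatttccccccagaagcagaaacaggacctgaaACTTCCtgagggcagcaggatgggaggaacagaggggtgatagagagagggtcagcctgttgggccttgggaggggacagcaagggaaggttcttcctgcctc
Cd68: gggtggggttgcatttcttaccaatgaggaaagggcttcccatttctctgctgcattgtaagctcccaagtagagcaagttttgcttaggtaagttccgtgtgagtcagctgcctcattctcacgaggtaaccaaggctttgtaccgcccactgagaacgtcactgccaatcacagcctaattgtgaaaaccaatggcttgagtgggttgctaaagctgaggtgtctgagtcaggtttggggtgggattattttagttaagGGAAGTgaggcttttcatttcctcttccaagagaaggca
The PU.1 core was found in 23.8% of all windows and in the Ptprc windows as well, but not in those of H2-Aa and H2-Eb1. A match describes the letters in the window and shows no binding.

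Setting GFP-positive against GFP-negative cells asks in which fraction of the sort these transcripts lie. All 10 genes were lower in GFP-positive cells in both treatments, by limma with Benjamini-Hochberg adjustment over all genes at 0.05. In odor mice 52.2% of all genes passed, 18.7% as lower, and in vehicle mice 48% passed, 18.2% as lower. The 10 differences had a median of -2.95 in odor mice and -2.74 in vehicle mice, against medians over all genes of 0.13 and 0.06. In no gene did the 2 fractions overlap, as was so, with the GFP-positive arrays lower, for 20.4% of all genes in odor mice and 22% in vehicle mice. The class II genes and Ptprc were lower by 9.26 to 22.6-fold and the macrophage genes by 2.41 to 6.25-fold. In these sorted bulk samples fewer cells of a type and less RNA per cell cannot be told apart.

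Values below are given for odor replicates 2, 3 and 4 and for vehicle replicates 1, 2 and 4, in that order. H2-Aa (probe set 10450154) had 7.29, 7.84 and 8.04 in GFP-positive cells of odor mice, against 11.79, 11.96 and 12.13 in their GFP-negative cells. In vehicle mice it had 7.36, 7.55 and 7.63 in GFP-positive cells, against 11.87, 12.02 and 12.14 in GFP-negative cells. The fractions lay far apart with no overlap, and H2-Aa was lower in GFP-positive cells by 18.9-fold in odor mice (difference -4.24, SE 0.16, adjusted p = 2.58e-09 by limma) and by 22.6-fold in vehicle mice (-4.50, SE 0.16, adjusted p = 2.24e-09). Only 0.0752% of all genes had a lower difference than H2-Aa in vehicle mice. H2-Ab1 (probe set 10444291), the partner chain of H2-Aa, had 7.62, 7.81 and 8.20 in GFP-positive cells of odor mice, against 11.89, 11.95 and 12.18 in their GFP-negative cells. Its values in vehicle mice were 7.55, 7.81 and 7.92 in GFP-positive cells and 11.79, 12.00 and 12.05 in GFP-negative cells. Its differences of -4.13 and -4.19 (SE 0.15) in odor and vehicle mice, 17.5-fold and 18.3-fold, were close to those of H2-Aa, its neighbour on chromosome 17.

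H2-Eb1 (probe set 10444298), the next gene of the same cluster, had 7.79, 7.80 and 8.02 in GFP-positive cells of odor mice, against 10.87, 11.20 and 11.31 in their GFP-negative cells. For vehicle mice the numbers were 7.76, 7.97 and 7.85 in GFP-positive cells and 10.89, 11.08 and 11.25 in GFP-negative cells. Among the class II genes H2-Eb1 had the smallest differences, -3.26 in odor mice and -3.21 in vehicle mice (SE 0.12, 9.56-fold and 9.26-fold). Cd74 (probe set 10456005) had 8.77, 9.03 and 9.38 in GFP-positive cells of odor mice, against 12.75, 12.90 and 13.05 in their GFP-negative cells. Vehicle mice had 8.64, 9.12 and 9.10 for Cd74 in GFP-positive cells and 12.85, 12.79 and 13.03 in GFP-negative cells. The invariant chain gene was thus lower by 14.3-fold and 15.3-fold (differences -3.84 and -3.94, SE 0.16), and the fractions again did not overlap.

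Ptprc (probe set 10358224) had 6.79, 7.07 and 7.38 in GFP-positive cells of odor mice, against 11.02, 11.39 and 11.63 in their GFP-negative cells. In vehicle mice the phosphatase gene had 6.95, 7.01 and 6.90 in GFP-positive cells, against 11.21, 11.12 and 11.45 in GFP-negative cells. Its differences, -4.27 in odor mice and -4.31 in vehicle mice (SE 0.16, adjusted p = 2.46e-09 and 2.76e-09 by limma), were of the size of the class II genes, and the 3 vehicle GFP-positive arrays lay within 0.11 of each other.

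The macrophage genes stood closer together in the fractions. Csf1r (probe set 10456071) had 8.28, 7.98 and 7.54 in GFP-positive cells of odor mice, against 10.25, 10.56 and 10.72 in their GFP-negative cells. In vehicle mice Csf1r had 8.57, 8.05 and 7.69 in GFP-positive cells, against 10.23, 10.22 and 10.33 in GFP-negative cells. Its differences were -2.58 in odor mice and -2.16 in vehicle mice (SE 0.22, 5.96-fold and 4.47-fold). The spread was wider among the GFP-positive arrays (SD 0.44 in vehicle mice) than among the GFP-negative ones (SD 0.06). Adgre1 (probe set 10446282) had 7.01, 6.54 and 6.19 in GFP-positive cells of odor mice, against 8.57, 8.91 and 9.31 in their GFP-negative cells. Vehicle mice had 7.02, 6.72 and 6.24 in GFP-positive cells and 8.42, 8.60 and 8.71 in GFP-negative cells. The F4/80 gene was lower by 5.1-fold in odor mice (difference -2.35, SE 0.24) and by 3.77-fold in vehicle mice (-1.91, SE 0.24).

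Cd68 (probe set 10387536) had 8.51, 7.86 and 7.91 in GFP-positive cells of odor mice, against 10.46, 10.82 and 10.92 in their GFP-negative cells. Its vehicle values were 8.83, 7.98 and 7.86 in GFP-positive cells and 10.47, 10.40 and 10.61 in GFP-negative cells. The highest GFP-positive array of each treatment, odor replicate 2 and vehicle replicate 1, stood well above the other arrays of its group, and the differences were -2.64 and -2.27 (SE 0.24). C1qa (probe set 10517517) had 8.0, 7.75 and 7.63 in GFP-positive cells of odor mice, against 9.27, 9.26 and 9.73 in their GFP-negative cells. In vehicle mice it had 8.36, 7.88 and 7.75 in GFP-positive cells, against 9.31, 9.16 and 9.34 in GFP-negative cells. C1qa had the smallest differences of the 10 genes, -1.63 in odor mice (SE 0.16, 3.09-fold, adjusted p = 6.01e-06 by limma) and -1.27 in vehicle mice (SE 0.16, 2.41-fold, adjusted p = 5.38e-05). C1qb (probe set 10517508) had 8.94, 8.39 and 8.42 in GFP-positive cells of odor mice, against 10.44, 10.51 and 10.87 in their GFP-negative cells. For the vehicle pools C1qb had 9.17, 8.51 and 8.04 in GFP-positive cells and 10.30, 10.26 and 10.48 in GFP-negative cells. Its differences were -2.02 and -1.77 (SE 0.24, 4.06-fold and 3.42-fold), again with the highest GFP-positive values in odor replicate 2 and vehicle replicate 1.

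**Figure D1:**
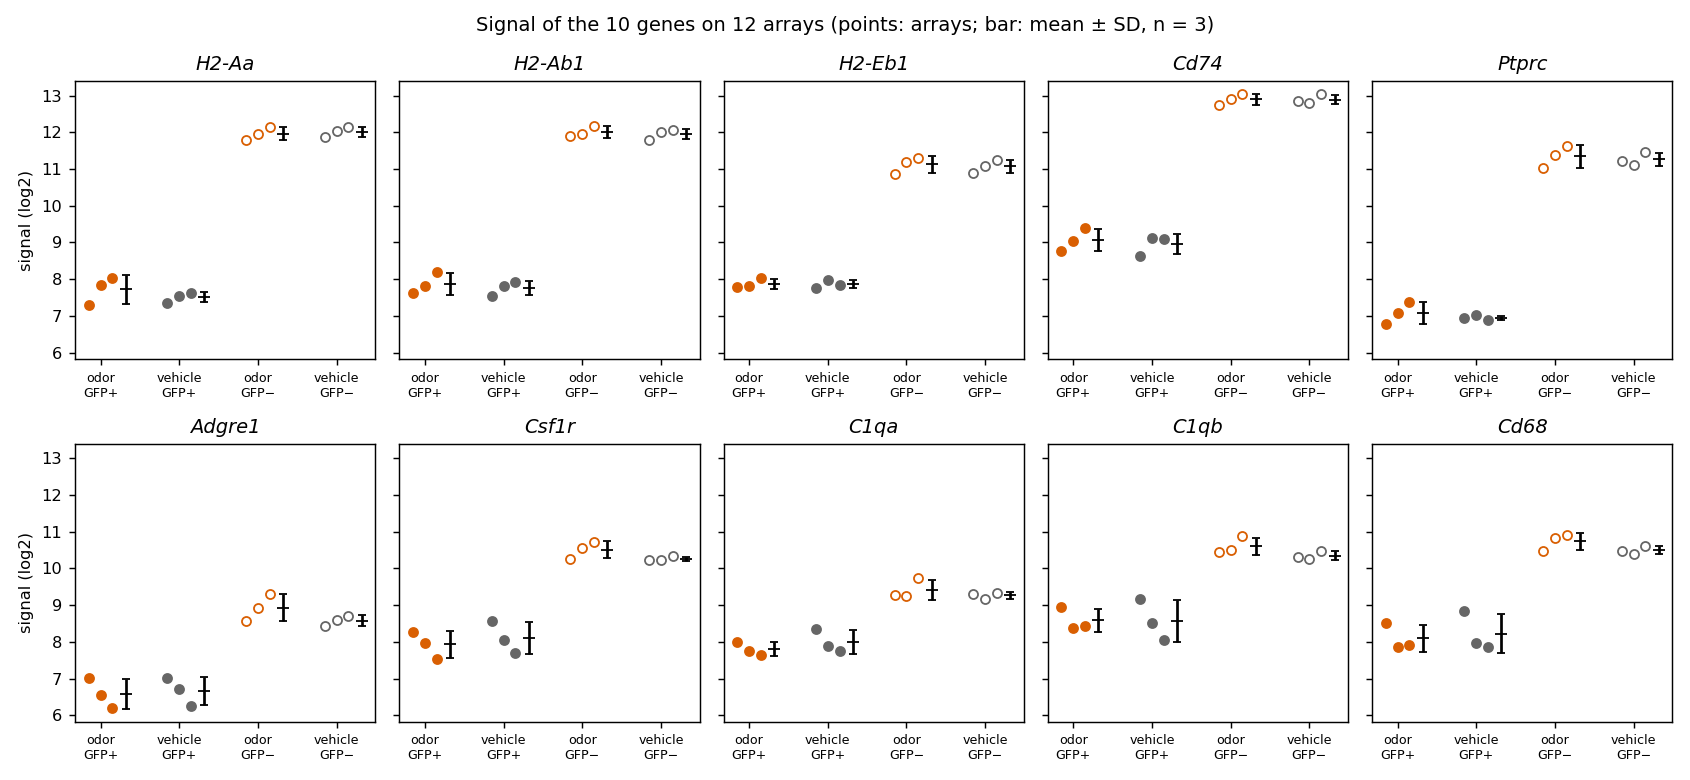
Signal (log2) of each of the 10 genes on each array, in odor and vehicle GFP-positive cells (filled points) and odor and vehicle GFP-negative cells (open points), with the mean ± SD of 3 arrays as a bar. In each panel the GFP-positive arrays lie below the GFP-negative ones, and odor and vehicle arrays of the same fraction overlap.

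Taken pool by pool, the class II genes had a mean difference between fractions of -3.96, -3.89 and -3.76 in odor pools 2, 3 and 4, and of -4.02, -3.86 and -3.99 in vehicle pools 1, 2 and 4. The macrophage genes had -1.65, -2.31 and -2.77 in these odor pools and -1.35, -1.90 and -2.38 in these vehicle pools. In 6 of 6 pools each of the 4 class II genes had a lower difference than each of the 5 macrophage genes. Probe sets can compress large differences to unequal degrees, so this order rests on the array's response as well as on the transcripts. The order holds for these genes and not for the wider lists given below. There 15 other genes of class II processing and control had medians of -1.25 in odor and -1.30 in vehicle mice, and 24 further macrophage and myeloid genes -3.07 and -2.85. The difference of the macrophage genes also spread more widely between pools, and Adgre1, for one, differed by -1.56, -2.37 and -3.12 in the odor pools and by -1.40, -1.88 and -2.47 in the vehicle pools. Ptprc, with -4.24, -4.32 and -4.25 in the odor pools and -4.26, -4.11 and -4.55 in the vehicle pools, stayed near the class II genes.

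**Figure D2:**
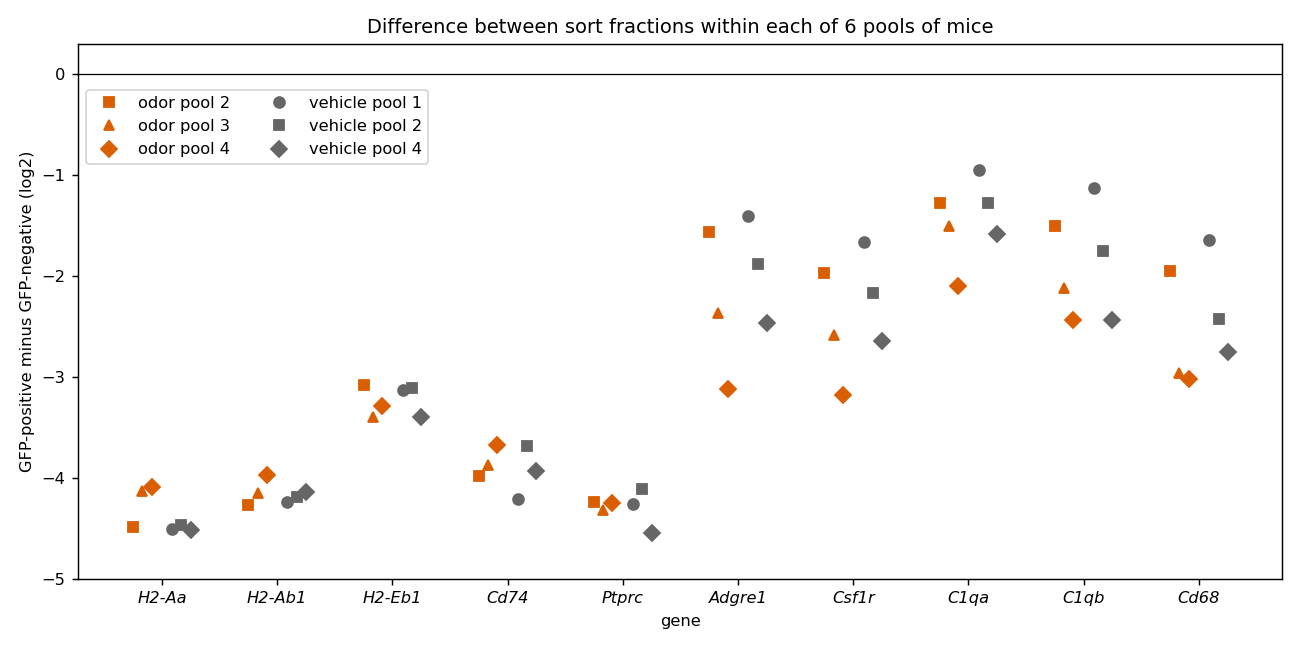
Difference between GFP-positive and GFP-negative cells (log2) of each gene within each pool of 3 mice, odor pools left of vehicle pools. H2-Aa, H2-Ab1, H2-Eb1, Cd74 and Ptprc lie between -4.55 and -3.08 in all 6 pools, and the 5 macrophage genes between -3.18 and -0.95.

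Other genes of these pathways, listed with earlier results of these data known, were mostly lower in GFP-positive cells too. Of 15 measured genes of class II processing and control, 11 were lower and 1 higher in odor mice, and 10 lower and 2 higher in vehicle mice, with medians of -1.25 and -1.30. H2-Ob and H2-Oa, chains of the H2-O molecule that restrains peptide loading, differed by -3.14 and -2.52 in odor mice and by -3.28 and -2.39 in vehicle mice. Ifi30, a reductase that opens disulfide bonds of antigens in lysosomes, differed by -3.29 and -3.46 (SE 0.14) in odor and vehicle mice, and Ctss, the protease that trims the invariant chain, by -2.93 and -2.84 (SE 0.20). Of 24 further macrophage and myeloid genes 22 were lower in each treatment and 0 higher (medians -3.07 and -2.85). Among them Cybb, a subunit of the phagocyte oxidase, differed by -4.28 and -4.22 (SE 0.18), Lyz2, a lysozyme, by -3.91 and -3.78 (SE 0.17) and Laptm5, a lysosomal protein of blood cells, by -3.55 and -3.47 (SE 0.14).

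The class I pathway, which most nucleated cells use, had a smaller median. Of its 15 measured genes 10 were lower and 1 higher in odor mice, and 8 lower and 2 higher in vehicle mice (medians -0.58 and -0.59). B2m, the light chain of class I, differed by -3.17 and -3.35 (SE 0.08), the peptide transporter gene Tap1 by -1.40 and -1.29 (SE 0.09) and the immunoproteasome gene Psmb8 by -2.43 and -2.31 (SE 0.16). Of 10 complement genes besides C1qa and C1qb, 5 were lower in each treatment, while 1 was higher in odor mice and 2 in vehicle mice. The receptor genes C5ar1 and C3ar1, for the fragments C5a and C3a, differed by -3.51 and -2.38 in odor mice and by -3.07 and -1.95 in vehicle mice. The ligands of the Csf1r receptor were called in opposite directions in odor mice. Csf1 was lower in GFP-positive cells, by -0.51 in odor and -0.47 in vehicle mice (SE 0.11). Il34, the other ligand, was higher in odor mice (0.24, SE 0.09, adjusted p = 0.0402 by limma), with 0.07 in vehicle mice (SE 0.09, adjusted p = 0.611). Its means of 6.87 in odor GFP-positive and 6.63 in odor GFP-negative cells lay near the level of genes expected to be absent. Of those 16 genes 5 were called higher in the same comparison, as were 33.5% of all genes. The interaction for Il34 did not pass (0.18, SE 0.13, adjusted p = 0.971).

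Genes of other blood cells moved with these in the sort, and their part in the result was not tested. Of 14 neutrophil genes 14 were lower in GFP-positive cells in each treatment (medians -4.29 and -4.42 in odor and vehicle mice), and of 9 B and plasma cell genes 9 were (medians -3.03 and -2.90). Of 12 T and NK cell genes 11 were lower in each (medians -1.11 and -0.85). The mean of the neutrophil list was 7.08 to 8.30 in odor and 7.23 to 7.66 in vehicle GFP-positive cells, against 11.53 to 12.04 and 11.51 to 11.71 in the GFP-negative cells of those mice. The mean of the B and plasma cell list was 6.65 to 6.93 and 6.72 to 6.79 in GFP-positive cells, against 9.54 to 10.02 and 9.50 to 9.67 in GFP-negative cells. Ms4a1 (CD20) and Cd79a, genes of B cells, which also use class II, differed by -4.57 and -4.29 in odor mice and by -4.76 and -4.20 in vehicle mice. Array signals have no true 0, so none of these markers can be called absent.

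The arrays of a group varied in a way that parted the 10 genes by role. In GFP-positive cells the class II genes lay below their group mean in odor replicate 2 (mean deviation -0.27) and vehicle replicate 1 (-0.19), and above it in odor replicate 4 (0.28) and vehicle replicate 4 (0.10). The 5 macrophage genes went the other way on the same arrays, with 0.35 in odor replicate 2, 0.48 in vehicle replicate 1, -0.26 in odor replicate 4 and -0.39 in vehicle replicate 4. Across the 6 GFP-positive arrays, deviations from the group means correlated negatively for 20 of 20 pairs of a class II and a macrophage gene (Pearson r from -0.95 to -0.47). Pairs within the class II genes had r from 0.68 to 0.96 and pairs within the macrophage genes from 0.84 to 0.97. Ptprc went with the class II genes (r from 0.75 to 0.88) and against the macrophage genes (r from -0.64 to -0.33). Its deviations were -0.29, -0.01 and 0.30 in odor replicates 2, 3 and 4, but -0.00, 0.06 and -0.05 in vehicle replicates 1, 2 and 4. These r of Ptprc thus rest mostly on the odor arrays. By the means of the class II and the macrophage genes, the high and low arrays of each treatment carry the same code number in the labels (1 for odor replicate 2 and vehicle replicate 1, 3 for replicate 4 of each). On the arrays of code 2, odor replicate 3 and vehicle replicate 2, the class II genes had -0.01 and 0.09 and the macrophage genes -0.09 and -0.08. Single genes departed from this order: C1qb and Cd68 were lowest on odor replicate 3, and H2-Eb1 and Cd74 highest on vehicle replicate 2. Over all genes the GFP-positive arrays of 1 code number correlated across treatments with r of 0.309, 0.185 and 0.268. By code number the 6 arrays fall into 3 pairs, genes of 1 array share its RNA and scaling, and no test was made.

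In GFP-negative cells the same genes varied together. Deviations were lowest in odor replicate 2, with a mean of -0.18 for the class II and -0.24 for the macrophage genes, and highest in odor replicate 4, with 0.17 and 0.27. All 45 of 45 pairs among the 10 genes had a positive r across the 6 GFP-negative arrays (0.53 to 0.98, median 0.88), the 20 pairs of a class II and a macrophage gene among them (0.53 to 0.96). The sign of the relation between the class II and the macrophage genes was thus opposite in the fractions, a difference that was described and not tested.

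**Figure D3:**
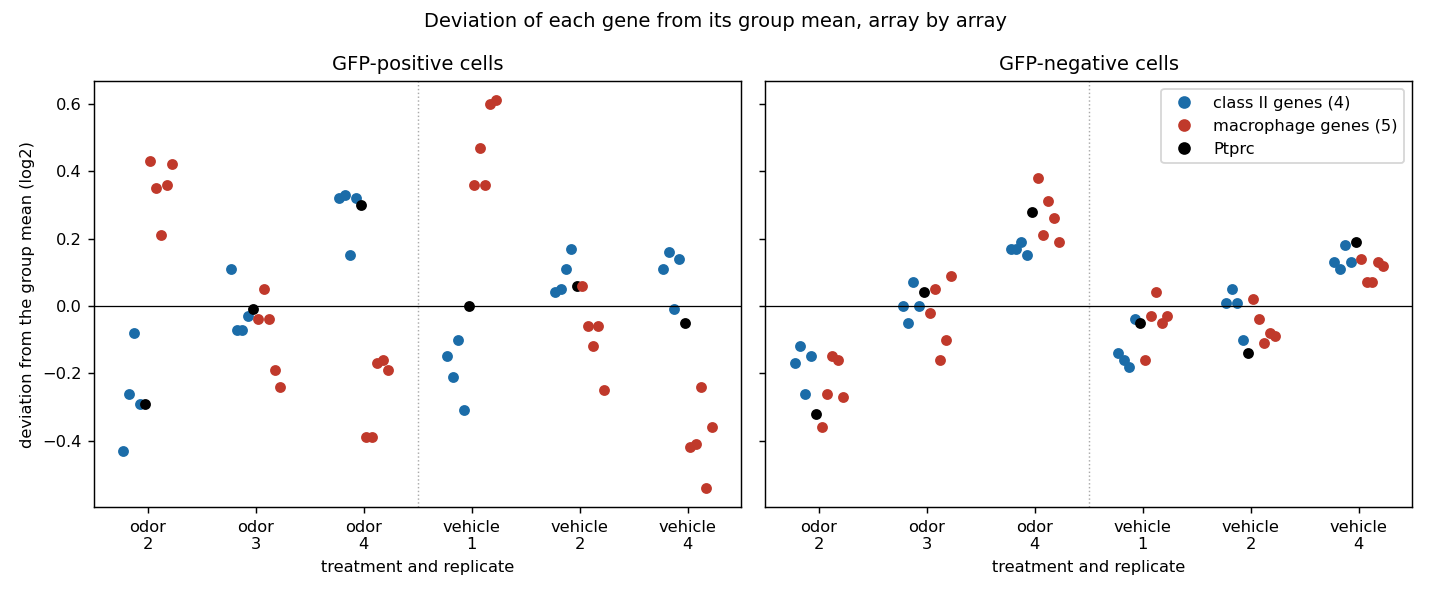
Deviation (log2) of each gene from the mean of its group on each array, with class II genes in blue, Ptprc in black and macrophage genes in red. In GFP-positive cells blue and red points lie on opposite sides of 0 on odor replicates 2 and 4 and on vehicle replicate 1, and in GFP-negative cells they lie together.

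Other lists took sides in GFP-positive cells as well. The mean of the neutrophil list had r = 0.96 with the class II genes and r = -0.80 with the macrophage genes over the 6 GFP-positive arrays, and 10 of its 14 genes had r above 0.8 with the class II genes, against 8.09% of all genes. Its mean was 7.08, 7.72 and 8.30 in odor replicates 2, 3 and 4 and 7.23, 7.49 and 7.66 in vehicle replicates 1, 2 and 4. The B and plasma cell list had r = 0.92 with the class II and r = -0.70 with the macrophage genes, but 1 of its 9 genes, Ms4a1 (r = 1.00), had r above 0.8 with the class II genes. The B cell gene Cd79a had r = 0.32 with them and Mzb1, of plasma cells, -0.09. The other 15 genes of class II processing and control went both ways. Their mean had r = -0.91 with the class II and 0.68 with the macrophage genes, but it spanned only 7.19 to 7.28, and 0 of 15 had r above 0.8 with the class II and 2 with the macrophage genes. H2-Oa (0.74), H2-Ob (0.68) and Rfx5 (0.66) had positive r with the class II genes, while Rfxap, a subunit of the RFX complex as Rfx5 is, had -0.97 and H2-DMa, a chain of the peptide-loading H2-M molecule, -0.81. The complement list was also mixed: its mean had r = 0.89 with the macrophage and r = -0.67 with the class II genes, 3 of its 10 genes had r above 0.8 with the macrophage genes and 2, Cd55 (0.99) and C5ar1 (0.90), with the class II genes. C1qc, the remaining C1q chain gene, had r = 0.99 with the macrophage genes, the mannose receptor gene Mrc1 0.94 and the protease gene Ctsc 0.94. All genes named here with r were singled out after their values were seen. The SD of their deviations was small for some, 0.03 for Rfxap and 0.07 for Rfx5 and Cd55, against 0.30 for H2-DMa and 0.40 for C1qc. The 24 further macrophage and myeloid genes were mixed: 5 had r above 0.8 with the macrophage genes and 2 with the class II genes. The 2 were Itgam, the CD11b chain that neutrophils also carry (r = 0.92), and Lyve1 (r = 0.94), whose deviations were small (SD 0.04). Genes with r above 0.8 to the macrophage genes made up 9.01% of all genes. The part of these other cells in the pattern was not tested.

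In GFP-negative cells the neutrophil, B and plasma cell, and T and NK cell lists all varied with the class II genes (r = 0.91, 0.92 and 0.98), as did the class II processing list (r = 0.98), and the mature sensory neuron list ran against them (r = -0.96). The mean of all genes had r = -0.44 with the class II genes there. Single genes with r above 0.8 were 8 of 14, 7 of 9, 5 of 12 and 7 of 15 in the first 4 of these lists, against 10.2% of all genes. The neuron list had 11.92, 11.71 and 11.61 in odor replicates 2, 3 and 4 and 11.88, 11.86 and 11.65 in vehicle replicates 1, 2 and 4, while the 10 genes had means of 10.73, 10.95 and 11.18 and of 10.73, 10.77 and 10.94 on those arrays. Arrays with more signal from leukocyte genes were thus those with less from sensory neuron genes.

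**Figure D4:**
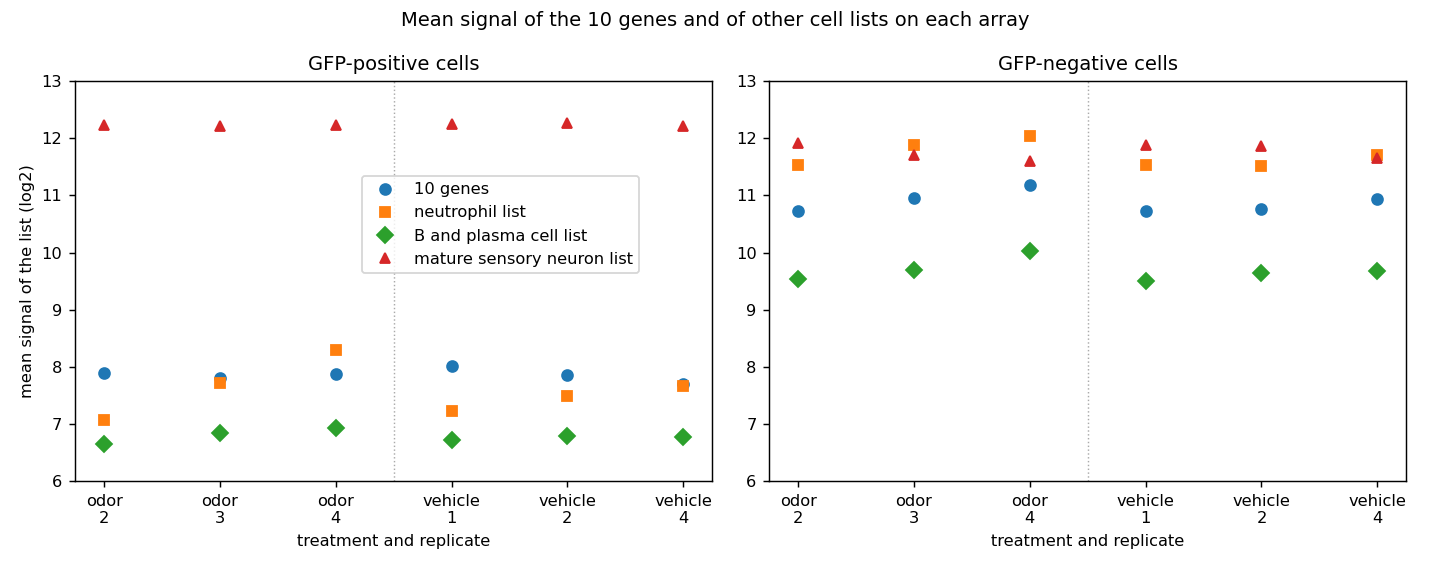
Mean signal (log2) of the 10 genes and of the neutrophil, B and plasma cell and mature sensory neuron lists on each array. In GFP-positive cells the neutrophil list spans 7.08 to 8.30 and the mean of the 10 genes 7.70 to 8.02. That mean joins class II and macrophage genes that went opposite ways, with mean deviations of -0.27 and 0.35 on odor replicate 2 and of 0.28 and -0.26 on odor replicate 4. In GFP-negative cells the mean of the 10 genes spans 10.73 to 11.18.

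The comparison of odor with vehicle mice asks what the accord changed within a fraction. In GFP-positive cells 0 of 10 genes passed, where 0.00502% of all genes did, and 0 had an unadjusted p under 0.05, where 1.3% of all genes did. Odor and vehicle arrays overlapped for each of the 10 genes, and 7.93% of all genes had groups that did not overlap. The class II genes had small positive differences, 0.21 for H2-Aa, 0.12 for H2-Ab1, 0.01 for H2-Eb1 and 0.11 for Cd74 (SE 0.12 to 0.16), and Ptprc had 0.13 (SE 0.16). H2-Aa averaged 7.72 ± 0.39 in odor and 7.51 ± 0.14 in vehicle GFP-positive cells (SD, n = 3 each). The macrophage genes had -0.08 for Adgre1, -0.17 for Csf1r, -0.21 for C1qa, 0.01 for C1qb and -0.13 for Cd68 (SE 0.16 to 0.24). C1qa averaged 7.79 ± 0.19 in odor and 8.0 ± 0.32 in vehicle GFP-positive cells (SD, n = 3 each). The 95% intervals reached from -0.65 (Cd68) to 0.56 (H2-Aa), so differences of up to these sizes are not excluded by 3 arrays a group. Without vehicle GFP-positive replicate 1 Cd68 had a difference of 0.17 and Csf1r of 0.07, and without odor GFP-positive replicate 4 Cd74 had -0.05 and H2-Ab1 -0.05, each a change of sign. The ranges with 1 array left out also crossed 0 for H2-Eb1 (-0.07 to 0.06), Adgre1 (-0.30 to 0.11), Ptprc (-0.02 to 0.27) and C1qb (-0.26 to 0.31). H2-Aa (0.05 to 0.42) and C1qa (-0.33 to -0.02) kept their sign with any 1 array left out.

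In GFP-negative cells, where these genes have most of their signal, 0 of 10 passed as well, as did 0% of all genes by limma. None had an unadjusted p under 0.05, where 6.53% of all genes did, and odor and vehicle arrays overlapped for each gene, where 7.44% of all genes did not overlap. The macrophage genes had positive differences, 0.35 for Adgre1 (SE 0.24, adjusted p = 0.763), 0.25 for Csf1r (SE 0.22), 0.26 for C1qb (SE 0.24), 0.24 for Cd68 (SE 0.24) and 0.15 for C1qa (SE 0.16). Adgre1 averaged 8.93 ± 0.37 in odor and 8.58 ± 0.15 in vehicle GFP-negative cells, and its 95% interval ran from -0.16 to 0.87 (SD, n = 3 each). The class II genes lay near 0, with -0.05 for H2-Aa, 0.06 for H2-Ab1, 0.05 for H2-Eb1 and 0.01 for Cd74 (SE 0.12 to 0.16), and Ptprc had 0.09 (SE 0.16). Cd74 averaged 12.90 ± 0.15 in odor and 12.89 ± 0.12 in vehicle GFP-negative cells (SD, n = 3 each). The median of the 10 differences was 0.12, against -0.01 over all genes. On these arrays odor replicate 4 was the highest odor array for 10 of 10 genes. Without it Adgre1 had 0.16, C1qa -0.00 and the median of the 10 genes was -0.02. Without odor replicate 2, the lowest odor array for 9 of the 10 genes, Adgre1 had 0.54 (SE 0.24, adjusted p = 0.429 by limma) and the median was 0.24, 1 of the 10 had an unadjusted p under 0.05, and 15 of all genes passed.

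**Figure D5:**
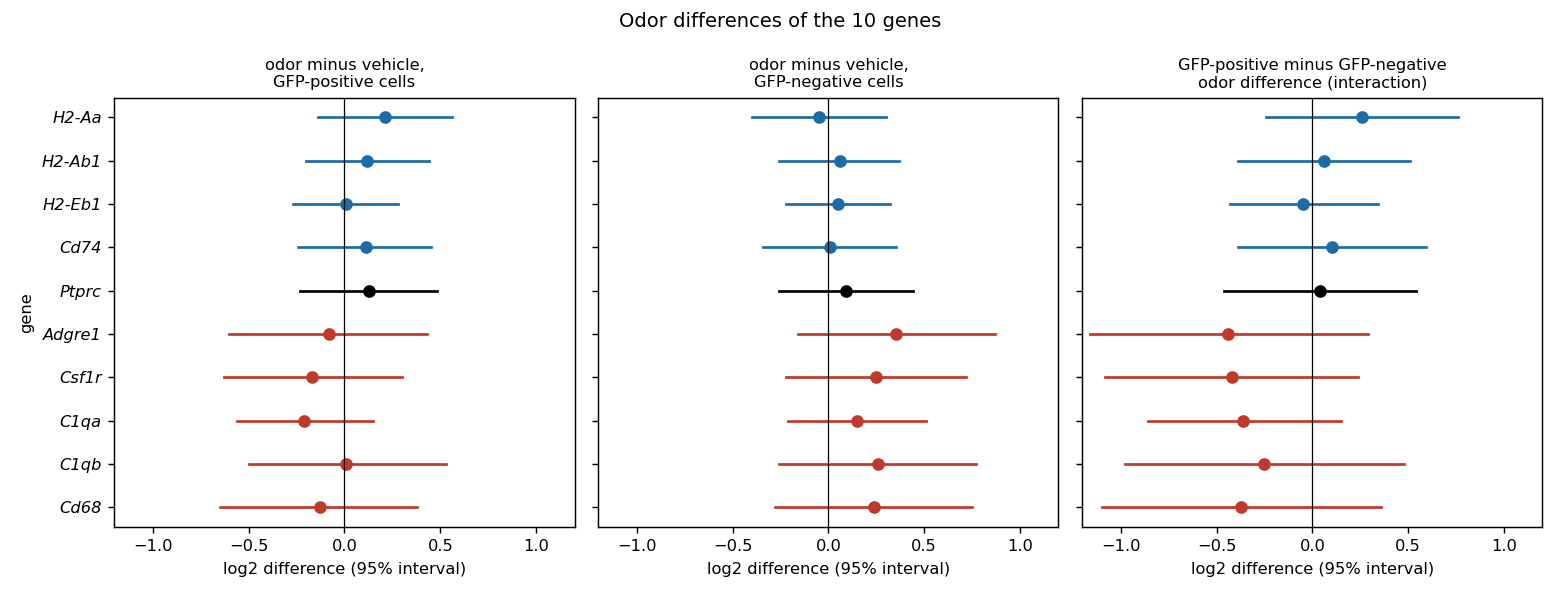
Difference between odor and vehicle (log2, point) with its 95% interval (line) for each gene in GFP-positive cells, in GFP-negative cells and for the interaction of odor and sort. Each interval includes 0, the outermost bounds being -0.65 and 0.56 in GFP-positive cells, -0.40 and 0.87 in GFP-negative cells and -1.16 and 0.76 for the interaction.

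The interaction asks whether the odor difference is the same in the fractions. It passed for 0 of 10 genes, where 0.00502% of all genes passed, and 0 had an unadjusted p under 0.05, where 4.23% of all genes did. The 5 macrophage genes had interactions from -0.44 (Adgre1, SE 0.34, adjusted p = 0.971) to -0.25 (C1qb, SE 0.33, adjusted p = 0.987), and the 4 class II genes from -0.05 (H2-Eb1) to 0.26 (H2-Aa, SE 0.23, adjusted p = 0.977). These comparisons share arrays with the odor and the sort comparisons above and add no separate samples. In order of level, the GFP-negative groups lay above the GFP-positive groups for each of the 10 genes, and the odor and vehicle neighbours within a fraction did not differ beyond their spread.

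Of the pathway lists, 0 of 15 class II, 0 of 24 macrophage, 0 of 15 class I and 0 of 10 complement genes passed in either odor comparison. In GFP-negative cells the macrophage and myeloid list had a median of 0.17 with 22 of 24 above 0, against 45.3% of all genes. Its mean was 9.33, 9.74 and 9.90 in odor replicates 2, 3 and 4. In vehicle replicates 1, 2 and 4 it was 9.41, 9.41 and 9.65, so the groups overlapped and odor replicate 4 was the highest array. Its gene Lyz1, a lysozyme, differed by 0.48 (SE 0.20, adjusted p = 0.732) and Csf2ra, a chain of a cytokine receptor of myeloid cells, by 0.32 (SE 0.16, adjusted p = 0.732). Of the 14 neutrophil genes 14 were above 0 there (median 0.18), with Mpo, a granule enzyme, at 0.57 (SE 0.22, adjusted p = 0.732). Genes of a list vary together on the arrays, so these counts are not of independent genes. Of 16 genes of other organs 0 were above 0 in the same comparison (median -0.11).

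The genes whose deviations from the group means most resembled the mean deviation of the 10 genes over all 12 arrays were Rpl5 and Rgs2 (r = 0.976 each), Cst3 (0.974), Tinf2 (0.971), Lamtor4 (0.969), Fcgr2b (0.963), Gpr65 (0.958), Il4ra (0.955), Spic (0.954) and Man2b1 (0.951). All of them were lower in GFP-positive cells in both treatments, from Lamtor4 with -0.61 in odor and -0.36 in vehicle mice to Rgs2, a regulator of G protein signalling, with -3.88 and -3.83. Fcgr2b, an inhibitory antibody receptor of myeloid and B cells, differed by -2.79 and -2.71, and Cst3, the protease inhibitor cystatin C, by -1.85 and -1.71. With 12 arrays and 19938 genes, high values of r arise for many genes, and no test was made. On GFP-positive arrays the mean deviation joins class II and macrophage genes that went opposite ways. It was 0.04, -0.05 and 0.01 in odor replicates 2, 3 and 4 there, so it does not describe the single genes on those arrays.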

How the data were processed

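RNA was measured in 12 sorted samples, 1 array each, in 4 groups of 3. The table deposited by the authors holds a log2 signal for each probe set, and the submitters' processing notes name Affymetrix Expression Console. Its version, the summarization and the scaling between arrays are not stated in the labels. That the scale is log2 follows from the range of the signals, and they entered the fits unchanged. Of 35556 probe sets 21789 had 1 symbol in the annotation used, 1621 had several and 12146 had none; those with several or none were left out. The probe set with the highest mean was kept for each of 19938 genes, and no filter on low values was set. The table held 0 columns of other samples. Arrays of 1 group correlated with r from 0.984 to 0.994, and no pair shared more than 11 identical values. Intensities give no counts, so the number of arrays sets the precision.

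The 4 groups were fitted together in limma 3.58.1 (R 4.3.3) without a replicate block, with two-sided moderated tests and Benjamini-Hochberg adjustment over all genes at 0.05; the fit was first tested on simulated data. The labels do not say more of the replicates than that each is a pool of 3 mice. Fractions with the same treatment and number come from the same pool, since 18 mice gave 6 pools, and their deviations from the group means correlated with r from 0.0732 to 0.252 over genes; pool as a block was an alternative. Between odor and vehicle the numbers mark no shared pool. By the labels' code numbers the r was 0.185 to 0.309 in GFP-positive and -0.206 to 0.439 in GFP-negative cells, and by replicate number -0.171 to 0.281. Arrays of unlike number were not compared, so these r do not settle whether either number pairs the arrays. Blocks by both numbers were alternatives. Other alternatives were scaling, filter, variance prior, probe set rule, array weights and leaving out each array. The pool block on 6 arrays alone was added after the data were seen. The 10 genes are always named; of each other list up to 4 genes with the smallest p in a comparison are named, and the 10 genes of known name with the highest r to the mean deviation. Promoter sequences and neighbouring genes were taken from RefSeq (GRCm38.p6). The members and lists were chosen with earlier results of these data known. Figures were drawn with Python 3.11.15 and matplotlib 3.10.9.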

Additional observations from a re-analysis of the deposited data

How the results depend on the processing

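The sort results held: all 10 genes stayed lower and past 0.05 in each treatment under each of 11 other settings and without any 1 of 6 arrays, with a largest adjusted p of 0.000575. With pool as a fixed replicate block all 10 passed in each treatment, in the fit of all arrays and in that of the 6 arrays alone. With pool as a random replicate block (correlation 0.11) they did as well. The odor comparisons and the interaction called 0 of 10 genes under every setting run, the replicate blocks by title number, code number and pool included. The median of all genes in the sort comparisons was 0.13 (odor) and 0.06 (vehicle) as deposited, 0.18 and 0.16 with array medians set equal, and 0.02 and 0.01 with cyclic loess. Of the 30 uncalled odor differences and interactions 19 changed sign in at least 1 fit, in 50 values in all (36 with an array left out), none of them past 0.05, and the cause was not tested. With array medians set equal the differences were H2-Eb1 -0.02, C1qb -0.01 (GFP-positive cells), Ptprc -0.02 (the interaction). With array weights the differences were C1qb -0.08 (GFP-positive cells), H2-Aa 0.06 (GFP-negative cells), H2-Ab1 -0.01, Ptprc -0.01 (the interaction). With the title number as replicate block the differences were H2-Eb1 -0.07, Cd68 0.05 (GFP-positive cells), H2-Ab1 -0.01, H2-Eb1 -0.02, Cd74 -0.07 (GFP-negative cells). With quantile normalization applied again the differences were Cd74 -0.00 (GFP-negative cells). With cyclic loess the differences were Cd74 -0.00 (GFP-negative cells). With 1 array left out, values in odor against vehicle GFP-positive cells ranged for C1qb -0.26 to 0.31, H2-Ab1 -0.05 to 0.25, H2-Eb1 -0.07 to 0.06, Cd74 -0.05 to 0.25, Adgre1 -0.30 to 0.11, Ptprc -0.02 to 0.27, Csf1r -0.37 to 0.07, Cd68 -0.34 to 0.17. With 1 array left out, values in odor against vehicle GFP-negative cells ranged for H2-Aa -0.13 to 0.04, H2-Ab1 -0.03 to 0.12, H2-Eb1 -0.04 to 0.18, Cd74 -0.06 to 0.08, Ptprc -0.05 to 0.25, C1qa -0.00 to 0.23. With 1 array left out, values in the interaction ranged for H2-Ab1 -0.10 to 0.19, Cd74 -0.06 to 0.24, Ptprc -0.12 to 0.18, C1qb -0.52 to 0.05, H2-Eb1 -0.18 to 0.05. The 95% intervals of the 10 genes in the odor comparisons reach 0.87.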

Other observations

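Genes of the interferon response, which can raise class II and class I genes, were called lower more often than higher in GFP-positive cells. Of 14 measured genes 8 were lower and 2 higher in GFP-positive cells of odor mice, and 7 lower and 2 higher in those of vehicle mice (medians -0.24 and -0.25). Of all genes 18.7% and 18.2% were called lower in odor and vehicle mice, and 33.5% and 29.9% higher. The 2 higher genes of the list were Ifit1, an RNA-binding antiviral protein gene, with 1.18 in odor and 1.39 in vehicle mice (SE 0.14), and Ifit2, its relative, with 0.80 and 1.03 (SE 0.09). Irf1, a transcription factor gene of the response to interferon gamma, differed by -2.46 and -2.48 (SE 0.23) and Irf7, one of the response to viruses, by -1.39 and -1.23 (SE 0.11). In the odor comparisons 0 of 14 passed in either fraction.

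Of 12 dendritic cell genes 8 were lower and 1 higher in GFP-positive cells in each treatment (medians -1.27 and -1.19 in odor and vehicle mice). Irf4 and Irf8, transcription factor genes of dendritic cell subsets that B cells also use, differed by -2.92 and -2.08 in odor mice and by -2.77 and -2.01 in vehicle mice. Itgax, the CD11c chain, differed between odor and vehicle by 0.43 in GFP-negative cells (SE 0.13, adjusted p = 0.732 by limma) and did not pass.

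Sustentacular genes, 8 of 8, were lower in GFP-positive cells too (medians -1.76 and -1.75), as were 4 of 8 endothelial genes in each treatment (medians -0.22 and -0.27). Only 1 of 7 fibroblast genes was lower, Dcn, with -2.07 in odor and -1.86 in vehicle mice (SE 0.28), and the fibroblast medians were -0.07 and -0.14. Of all genes 18.7% in odor and 18.2% in vehicle mice were called lower, so the fibroblast count lay near that share. Of 12 mature sensory neuron genes 11 were higher in odor and 10 in vehicle mice (medians 0.48 and 0.45). Of 16 genes of other organs, such as Pomc and Prm1, 5 were higher in GFP-positive cells of odor mice and 0 in those of vehicle mice (medians 0.16 and 0.01), against 33.5% and 29.9% of all genes called higher and medians over all genes of 0.13 and 0.06. Their interactions were above 0 in 16 of 16 (median 0.18), against 54.2% of all genes (median 0.02), and 0 of 16 passed. An unadjusted p under 0.05 was found for 2 of the 16 interactions, against 4.23% of all genes. Between odor and vehicle, 14 of 16 were above 0 in GFP-positive cells (median 0.05) and 0 of 16 in GFP-negative cells (median -0.11). The cause of this shift was not tested. Of 4 erythroid genes 3 were lower in each treatment, and of 4 signalling partners of Ptprc 4 were, among them Ptpn6, another leukocyte phosphatase gene, with -2.08 and -2.14 (SE 0.10).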
